A study of Mus musculus with 2 samples.

Results

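The Indian hedgehog and PTHrP loop was described in mouse primary chondrocytes with 10 genes: Ihh and Pthlh, which encode the secreted signals, the receptor genes Pth1r, Ptch1 and Smo, the transcription factor genes Gli1, Gli2 and Gli3, and the inhibitor genes Hhip and Sufu. The genes were chosen by name, as the ligands, receptors, transducers and targets of the loop, out of 20660 genes that probes of the array could be matched to through RefSeq transcripts. Earlier results of these data were known at that choice, so counts over the members are no independent support. The chondrocytes came from C57BL/6J mice at 6 days of age. They were kept for 48 h in fibronectin-coated silicon stretch chambers, and RNA was taken either before loading or 24 h after 30 min of cyclic tensile strain at 0.5 Hz with 10% elongation. Each time point had 1 one-colour array, so there is no replicate error, no test was run, and having only 2 arrays limits how precise any value can be. The sources used here do not say how many mice gave the cells of an array. An unloaded culture of the same age as the 24 h sample was not analysed here, so loading and the added day in culture cannot be told apart.

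In the growth plate, chondrocytes that leave the proliferating pool secrete Indian hedgehog. The protein binds the receptor Patched 1, which then releases its block on Smoothened, and Gli transcription factors switch on target genes that include Ptch1, Gli1 and Hhip themselves. Hedgehog signalling also maintains PTHrP, the product of Pthlh, near the ends of the bone, and PTHrP acts through the receptor encoded by Pth1r to hold chondrocytes back from hypertrophy, which closes the loop.

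Since the loop runs through transcription, the RefSeq promoter windows of 3 members are shown: that of Ihh, the signal, and those of the targets Ptch1 and Hhip. Each window runs from 250 bases before to 50 bases after the annotated start in build GRCm38.p6, is written 5′ to 3′ on the strand of the gene, and has the motif matches in capitals. The Ihh window lies at chr1:74951623-74951922, the Ptch1 window at chr13:63565686-63565985 and the Hhip window at chr8:80057959-80058258, all on the reverse strand.
Ihh: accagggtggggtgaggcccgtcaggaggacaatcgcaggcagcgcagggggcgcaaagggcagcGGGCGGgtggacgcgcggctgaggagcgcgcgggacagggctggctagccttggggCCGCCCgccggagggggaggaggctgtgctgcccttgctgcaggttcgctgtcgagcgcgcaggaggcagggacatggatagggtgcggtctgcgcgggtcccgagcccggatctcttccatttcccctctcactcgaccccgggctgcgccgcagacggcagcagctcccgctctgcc
Ptch1: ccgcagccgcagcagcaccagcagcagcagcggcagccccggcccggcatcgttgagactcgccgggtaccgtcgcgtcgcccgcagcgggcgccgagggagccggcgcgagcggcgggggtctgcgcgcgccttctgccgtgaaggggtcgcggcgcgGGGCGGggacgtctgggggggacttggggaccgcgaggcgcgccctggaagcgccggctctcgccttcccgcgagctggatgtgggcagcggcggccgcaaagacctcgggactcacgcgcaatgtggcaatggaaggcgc
Hhip: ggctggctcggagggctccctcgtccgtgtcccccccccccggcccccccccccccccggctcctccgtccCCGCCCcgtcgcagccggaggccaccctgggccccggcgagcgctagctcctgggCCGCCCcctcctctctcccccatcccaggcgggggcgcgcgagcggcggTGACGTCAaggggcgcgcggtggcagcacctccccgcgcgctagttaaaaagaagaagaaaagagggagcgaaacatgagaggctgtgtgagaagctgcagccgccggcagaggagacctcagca
The capitals in the Ihh window are 2 GC boxes (GGGCGG or its reverse complement CCGCCC), in the Ptch1 window 1 GC box, and in the Hhip window 2 GC boxes and 1 complete cAMP response element (TGACGTCA). The table of promoter windows held 11 windows for 9 of the members. The GLI consensus GACCACCCA, searched on both strands, was in 0 of these 11 windows and in 0.253% of all 32851 windows. The cAMP response element was in 1 of the 11, that of Hhip, and in 1.79% of all windows. GC boxes were in 9 of the 11 and in 35.7% of all windows, the RUNX core TGTGGT was in 1, that of Gli3, and in 16.8% of all, and TATAAA was in 0 and in 13.6% of all. A match describes the letters of a window, and a missing match says only that those letters are not in it. The GC content was 72.7% for Ihh, 76.3% for Ptch1 and 73.7% for Hhip, and its median over all windows was 52.7%.

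Among 59305 spots, with controls left out, the scanner software called 59.1% well above background on the array before loading and 57.7% on the other. Each member was represented by its brightest probe, and all 10 were well above background on both arrays, as were 14231 genes in total, which are called detected here. Intensities are the scanner software's background-subtracted signals. The log2 ratio, positive where the 24 h array was higher, has each array set relative to its own 75th percentile, which lay at an intensity of 466 on both arrays. The error printed with a log2 ratio combines what the scanner software gives for each of the spots and covers within-array error only. It lay between 0.20 and 0.29 for the members, each of which rests on 1 spot per probe and array. The cells carried the transcripts that define chondrocytes: Col2a1, the main cartilage collagen, had intensities of 499543 and 474876, Acan, the large cartilage proteoglycan, 71350 and 89998, and Sox9, the chondrogenic transcription factor, 9965 and 11610, before and at 24 h, respectively.

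The hedgehog signal gene Ihh and the targets Gli1 and Ptch1 were lower at 24 h, while the other 7 genes, among them the transducers and both genes of the PTHrP side, had log2 ratios between -0.28 and 0.07. A total of 2 of the 10 members, Ihh and Gli1, were more than 2-fold lower and 0 were more than 2-fold higher, where 1.83% of the 14231 detected genes were more than 2-fold lower and 0.668% were higher by as much. By level, 1 of the 4 members above the 75th percentile (Gli1) was more than 2-fold lower, against 0.899% of 8564 such genes, and 1 of the 6 others (Ihh), against 3.23% of 5667. In all, 8 of the 10 had a log2 ratio below 0, against 52.4% of detected genes, and 4 were lower by more than their within-array error, against 22.9%. The median log2 ratio of the 10 was -0.19, and that of all detected genes was -0.01. In bulk RNA such as this, fewer cells of a type and less RNA per cell cannot be told apart.

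Ihh, the secreted signal of the loop, had intensities of 586 before loading and 237 at 24 h. This was the lowest log2 ratio of the 10 members, -1.30 with a within-array error of 0.21, or 2.47-fold lower. The level therefore passed from above the 75th percentile of the array to below it. Its log2 ratio had rank 125 from the lowest among the 14231 detected genes. The Ihh spot had 30 neighbours within 100 µm, of which 1 was past 2-fold downwards and 2 upwards, and the median log2 ratio of these neighbours was 0.03.

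**Figure D1:**
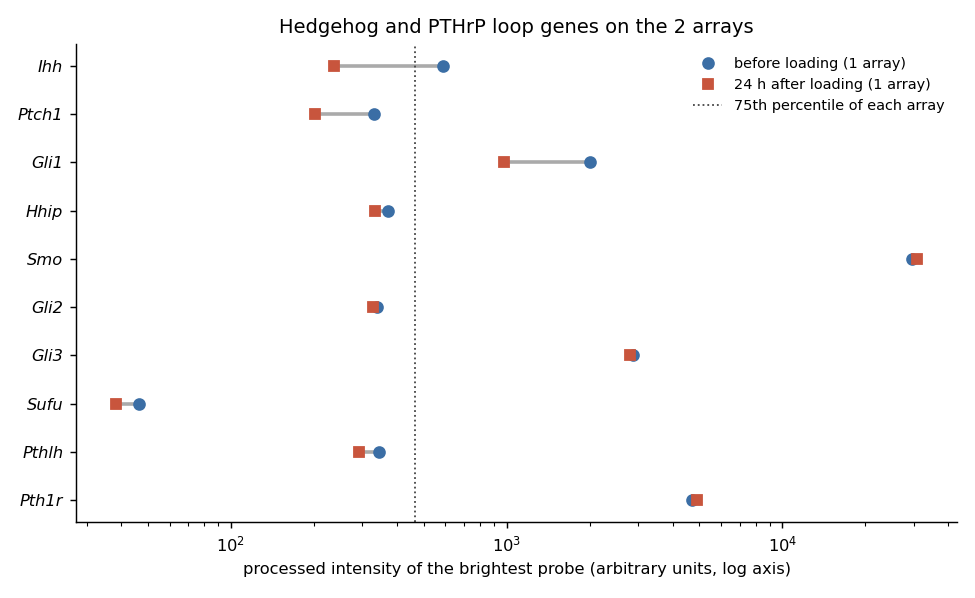
Processed intensity of the brightest probe of each of the 10 genes (log axis, arbitrary units) before loading (circle) and 24 h after loading (square), with 1 array per time point and the 75th percentile as a dotted line. Ihh moved from 586 to 237 and Gli1 from 2011 to 975, whereas the symbols of Smo, Gli2, Gli3 and Pth1r nearly coincide; levels of different probes are not comparable with each other.

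Whether the hedgehog targets followed Ihh was asked of Gli1, Ptch1 and Hhip. Gli1 is a transcription factor whose own gene is switched on by hedgehog signalling, and it is widely used as a readout of it. Its intensity was 2011 before loading and 975 at 24 h. The log2 ratio was -1.04 with a within-array error of 0.20, or 2.06-fold lower, and its rank was 235 from the lowest among detected genes. This lay just past 2-fold and came inside it in 4 of the 9 other settings run. It was -0.95 when arrays were scaled by their medians, -0.92 when scaled to the spike-in controls and -0.91 with normexp background correction. The 27 neighbours of the Gli1 spot had a median log2 ratio of -0.24, with 0 of them past 2-fold downwards and 2 upwards. When the median of the neighbours was subtracted, the log2 ratio of Gli1 was -0.80. The direction was the same in all 9 settings.

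Ptch1 encodes the receptor that binds hedgehog and is itself a target, so that a cell under hedgehog signalling makes more of the receptor that restrains it. Its intensity was 330.0 before loading and 201 at 24 h. The log2 ratio of -0.71 had a within-array error of 0.21, or 1.64-fold lower, at rank 553 from the lowest. Over the 9 other settings it lay between -0.78 and -0.60.

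Hhip, a membrane protein that binds hedgehog and keeps it from the receptor, is the other target that acts as an inhibitor. Its brighter probe had intensities of 370.5 before loading and 333 at 24 h. The log2 ratio of -0.15 was smaller than its within-array error of 0.21. The dimmer probe of Hhip had 32.7 before loading, and 19.9 at 24 h, when it was not well above background. Signals well above background began at 17.8 on that array, so the dimmer probe was near this limit at 24 h. Its measured log2 ratio was -0.72, or 1.65-fold lower, with a within-array error of 0.42. This value is uncertain and sets no bound on the change.

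Of the 3 targets, Gli1 and Ptch1 were lower than before loading by more than their within-array error, as Ihh was. Hhip was lower by less than its own on its brighter probe and by more on its dimmer probe (-0.72, error 0.42). The values that follow use the brighter Hhip probe. The median of the 3 log2 ratios was -0.71. Gli1 differed from Ihh by 0.26 on the log2 scale, less than the combined within-array error of 0.29. Ptch1 was lower by less than Ihh, with a difference of 0.59 and an error of 0.29. Hhip differed from Ihh by 1.15 and from Gli1 by 0.89, each with an error of 0.29, or 3.95 and 3.08 times that error. A difference between log2 ratios of 2 genes does not depend on a constant that scales a whole array.

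**Figure D2:**
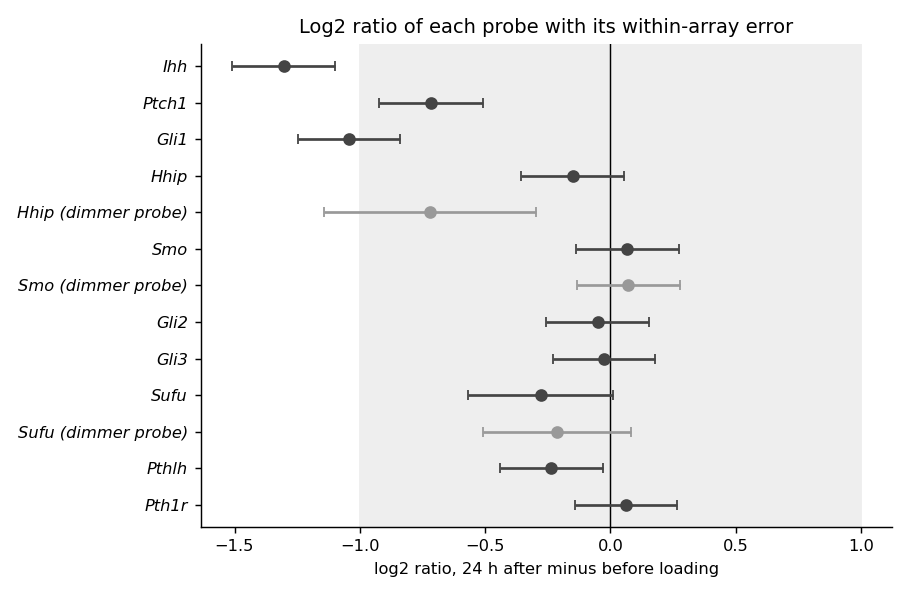
Log2 ratio (24 h after minus before loading) of all 13 probes of the 10 genes; bars are the within-array error of 1 spot per array, dimmer probes are in light grey, and the shaded band marks changes within 2-fold. Ihh and Gli1 lie outside the band, Ptch1 lies inside it at -0.71, and the bars of Smo, Gli2, Gli3, Sufu, Pth1r and the brighter Hhip probe cross 0.

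The genes that carry the signal inside the cell were near their level before loading. Smo encodes the membrane protein that starts the intracellular signal once Patched 1 no longer blocks it. Its brighter probe had intensities of 29463 before loading and 30868 at 24 h, and its dimmer probe 3160.1 and 3321. The log2 ratios of these probes, 0.07 and 0.07, were alike and within the error of 0.20. The difference between the log2 ratios of Smo and Ptch1 was 0.78 with an error of 0.29.

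Gli2 is the main activator of hedgehog target genes, and Gli3 is largely processed to a repressor when the signal is absent. The intensity of Gli2 was 338 before loading and 326 at 24 h, a log2 ratio of -0.05. That of Gli3 was 2864 and 2812, a log2 ratio of -0.03. Both were smaller than their within-array errors of 0.21 and 0.20. Gli2 had a log2 ratio above 0 in 2 of the 9 other settings and Gli3 in 3. Gli1 therefore stood apart from the other Gli genes, with Gli2 above it by 0.99 and Gli3 by 1.02 on the log2 scale, at an error of 0.29 for each.

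Sufu, which holds Gli proteins in the cytoplasm, was read by 2 dim probes. Its brighter probe had intensities of 46.5 before loading and 38.3 at 24 h, a log2 ratio of -0.28 with an error of 0.29. The other probe had 41.3 and 35.6, a log2 ratio of -0.21 with an error of 0.30. Both probes were lower by less than their errors.

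On the PTHrP side, Pthlh had intensities of 344 before loading and 292 at 24 h. The log2 ratio was -0.24 with a within-array error of 0.21, or 1.18-fold lower, and it lay between -0.30 and -0.12 over the 9 other settings. Pthlh was lower by less than Ihh, with a difference of 1.07 and an error of 0.29. Pth1r, the receptor of PTHrP and of parathyroid hormone, had intensities of 4687 before loading and 4889.65 at 24 h, a log2 ratio of 0.06 with an error of 0.20. The log2 ratios of Pth1r and Ihh differed by 1.37 with an error of 0.29.

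**Figure D3:**
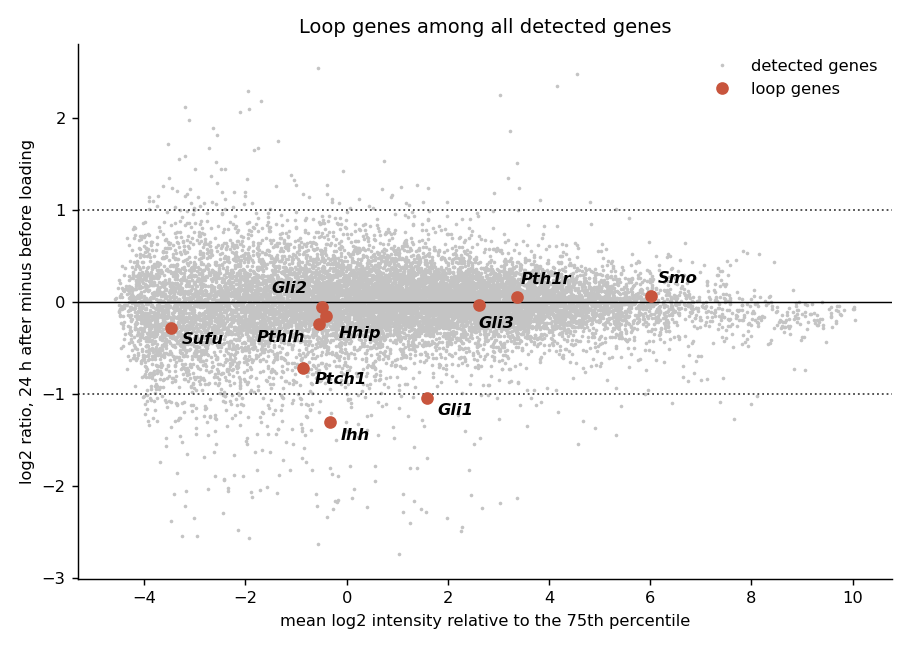
Log2 ratio (24 h after minus before loading) against the mean log2 intensity relative to the 75th percentile, for the 14231 detected genes (grey) and the 10 loop genes (red), with dotted lines at 2-fold. Ihh and Gli1 lie below the lower line, Ptch1 between that line and 0, and the other 7 between -0.28 and 0.07.

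The wider hedgehog pathway was described with 3 lists. Of 15 genes that release or receive the signal, 11 were detected, 1 was past 2-fold upwards and 0 downwards, with a median log2 ratio of -0.08. Of the other hedgehog ligands, Dhh had a log2 ratio of -0.15 and Shh was not detected. Disp2 and Lrp2 were not detected either. For Scube2, a secreted protein that helps release hedgehog from the cell, the brighter probe went from 757 to 1569, a log2 ratio of 1.05, and the dimmer one had 0.34. It came inside 2-fold with 1 of 5 other scalings. Gas1, a co-receptor, had 0.41 on its brightest probe and -0.12 and 0.31 on the others, and Disp1, which exports hedgehog, had 0.15. The lowest of this list were Scube1 at -0.37 and the glypican Gpc3 at -0.36. The co-receptors Boc and Cdon had -0.13 and -0.02, and the dimmer probe of Cdon had -0.44 with an error of 0.20.

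Of 29 measured genes of the primary cilium and of Gli processing, all 29 were detected, with 1 past 2-fold upwards, 0 downwards and a median log2 ratio of 0.03. Btrc, part of the ubiquitin ligase that acts on Gli proteins, had log2 ratios of 1.18 and 0.20 on its brighter and dimmer probes, and came inside 2-fold with 1 of 5 other scalings. Efcab7 (0.72), at a dim probe, and the kinase gene Gsk3b (0.31) followed. The lowest were Rpgrip1l (-0.30), Ift88 (-0.26) and Ift172 (-0.24), all of which encode proteins of the cilium. Within 100 µm, the Rpgrip1l spot had 11 neighbours past 2-fold downwards and 0 upwards.

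Of 16 measured genes known as hedgehog targets in one tissue or another, other than the members, 11 were detected, and 0 were past 2-fold in either direction. Their median log2 ratio was -0.14, with 7 lower and 4 higher. Foxd1 (-0.38), Foxc2 (-0.26) and Nkx3-2 (-0.24), all transcription factor genes, were lowest. Within 100 µm, the Nkx3-2 spot had 7 neighbours past 2-fold downwards and 2 upwards. Adamts5, an aggrecan-cleaving protease, was highest with 0.62 and with 1.31 on its dimmer probe, followed by Ccnd2, a D cyclin, with 0.48 and Nkx2-2 with 0.18. Mycn, Foxf1, Foxf2 and Foxl1 were among those not detected.

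Of 36 measured genes that act with or after the PTHrP receptor, 34 were detected and 0 were past 2-fold, with a median log2 ratio of -0.02. Gnas, the G protein subunit that couples the receptor to cAMP, had intensities of 64025 before loading and 64114 at 24 h on its brightest probe. Sik2, a kinase of the family that cAMP signalling inhibits, had the lowest log2 ratio, -0.80, followed by Hdac4 (-0.59), a repressor of hypertrophy through Mef2 factors, and Creb1 (-0.43), whose dimmer probe had 0.58. Within 100 µm, the brighter Sik2 probe had 9 neighbours past 2-fold downwards and 1 upwards. The dimmer Sik2 probe, with 0 in either direction, had -0.53. The highest were Adcy9 (0.37), Adcy6 (0.36) and Plcb3 (0.36), an adenylyl cyclase pair and a phospholipase.

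Genes that respond to cAMP were mostly lower. Of 18 detected, 15 had a log2 ratio below 0, 9 of them by more than their within-array error, and 0 were past 2-fold, where 52.4% and 22.9% of all detected genes were lower in these ways. Their median was -0.19. With 5 other scalings 12 to 14 were below 0, and the median reached -0.07 with the spike-in controls. Sik1, Fosb and Fosl2, all close to 0, were above 0 with 5, 4 and 3 of these. Fos, an immediate early gene, had intensities of 183 before loading and 92.8 at 24 h, a log2 ratio of -0.98. Rgs2, which dampens G protein signalling, had -0.90 and -1.11 on its brighter and dimmer probes, and the phosphatase gene Dusp1 had -0.51. Ppargc1a (0.34), Id1 (0.15) and Pde10a (0.12) were the 3 that were higher. The lists share genes with each other, Pde4b and Pde4d here and Nkx3-2, Hdac4, Zfp521, Runx2, Runx3, Mef2c and Foxa2 among the others.

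The genes that are known to control Ihh stayed within 2-fold. All 20 of a list of regulators were detected, 0 were past 2-fold, and their median log2 ratio was -0.06. Hdac4 (-0.59), Runx3 (-0.43) and the growth factor gene Fgf18 (-0.28) were lowest, and Smad5 (0.24), the BMP receptor gene Bmpr1a (0.24) and Fgfr3 (0.21) were highest. The dimmer probe of Smad5 had -0.40. Runx2, a transcription factor that drives Ihh in hypertrophic chondrocytes, had a log2 ratio of -0.05 that was above 0 with 4 of 5 other scalings. It differed from Ihh by 1.25 with an error of 0.33.

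Genes of hypertrophic chondrocytes, the cells that follow the Ihh-expressing stage in the growth plate, were mostly lower at 24 h, as Ihh was. All 14 listed genes other than the members were detected, and their median was -0.35. A log2 ratio below 0 was found for 13, against 52.4% of all detected genes. Of these 13, 9 were lower by more than their within-array error, against 22.9% of all detected genes. More than 2-fold lower were 2 of the 14, against 1.83%. The median was -0.23 when arrays were scaled to the spike-in controls and -0.18 with normexp, and with 5 other scalings 11 to 13 genes were below 0. The summed intensity of the 14 was 31800 before loading and 17090.0 at 24 h, and that of the 13 without Col10a1 was 12891 and 10605. Ibsp, a mineral-binding matrix protein, had the lowest log2 ratio, -2.06, and Col10a1, the collagen of hypertrophic cartilage, had -1.54, and both stayed past 2-fold with 5 of 5 other scalings. Col10a1 and Ihh differed by -0.24, less than the error of 0.29. Alpl, the phosphatase of mineralizing cartilage, had -0.89, and Mmp13, a collagenase, was the 1 member of this list above 0, with 0.49.

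**Figure D4:**
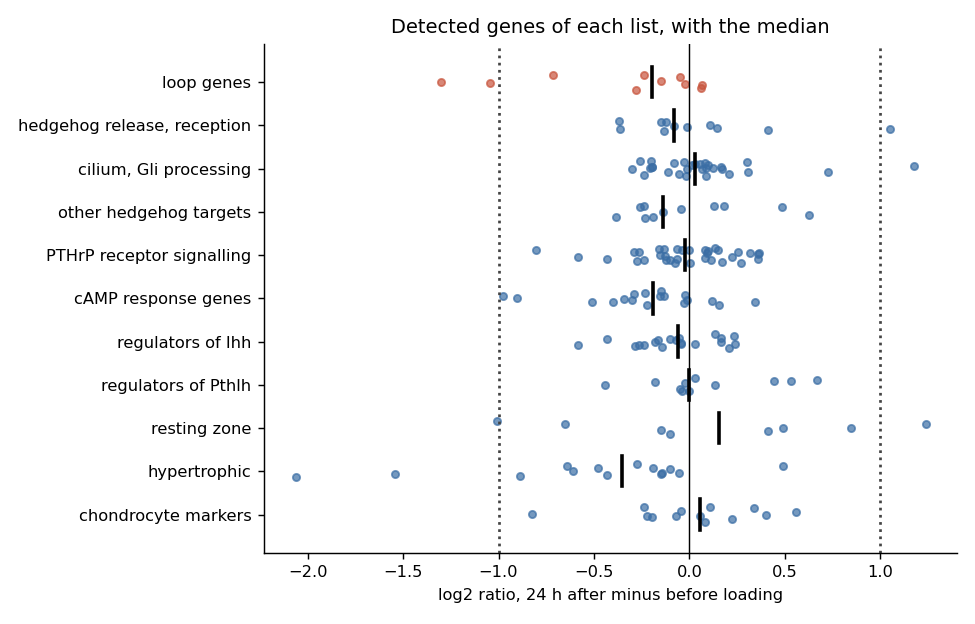
Log2 ratio (24 h after minus before loading) of each detected gene (point) in the loop and in 10 further gene lists, with the median of each list as a black bar and dotted lines at 2-fold; vertical scatter within a list has no meaning. The medians lie between -0.35 for hypertrophic genes and 0.15 for resting zone genes, and the loop genes have -0.19.

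Other features also differed between the 2 arrays, in lists written with earlier results of these data known. All 15 listed genes of the G2 and M phases were more than 2-fold lower, against 1.83% of all detected genes. Their median log2 ratio was -2.24, and their summed intensity was 47712 before loading and 10823 at 24 h. Of 6 adipocyte genes, 4 were detected, with a summed intensity of 1673 and 2500.2. More than 2-fold higher were 2 of these, against 0.668% of all detected genes. Adipoq, an adipocyte hormone, had a log2 ratio of 2.29, Plin1 of the lipid droplet 1.01, Fabp4, a fatty acid carrier, 0.95 and Pparg, the adipogenic transcription factor, -0.27. Plin1 came inside 2-fold with normexp, at 0.62. Cidec and Lep were not well above background. Of the other cell types, 5 of 8 measured osteoblast genes were detected (median -0.04; Dmp1 and Sost were among those that were not), 9 of 9 fibroblast and perichondrium genes (0.11), 7 of 7 macrophage genes (0.09), 3 of 7 endothelial genes (-0.05; Cdh5, Tek, Tie1 and Emcn were not), 5 of 8 skeletal muscle genes (-0.13) and 2 of 5 erythroid genes (-0.11). Their summed intensities before loading and at 24 h were 35576 and 34897 for osteoblasts, 131593 and 133389 for fibroblasts and perichondrium, 29745 and 28833 for macrophages, 12958 and 12557 for endothelium, 1918 and 1691 for muscle and 124 and 115 for erythroid cells. The brightest gene made up most of the sums of the first 4 types, and without it they were 1119 and 1405 for osteoblasts (Col1a1 left out), 50028 and 49792 for fibroblasts and perichondrium (Dcn), 4249 and 4074 for macrophages (Itgam) and 184 and 182 for endothelium (Kdr). Before loading, the brightest probes of Itgam and Kdr had 25496 and 12774. The other probes had 70.4 and 49.0 for Itgam, and 5.05 for Kdr, which was not well above background. By their brightest probes, the genes of these lists past 2-fold were Ptprc (1.14, at a dim probe), the pan-leukocyte phosphatase, and Myh8 (1.15), a myosin of young muscle. Both were higher, and both were inside 2-fold with normexp (0.40 and 0.63). The dimmer probe of Myh8 was not well above background. Within 100 µm, the Ptprc spot had 6 neighbours past 2-fold upwards and 1 downwards. Other markers went either way, among them Lyz2 of macrophages (0.46), Vwf of endothelium (-0.48) and the muscle troponin gene Tnnt3 (-0.78). The dimmer probe of Tnnt3 had intensities of 449 and 224, or 2.01-fold lower. The part of any of these in the result for the loop was not tested. The 13 chondrocyte markers, all detected, had a median log2 ratio of 0.06 and 0 past 2-fold. By more than their within-array error, 4 of them were higher and 3 lower. Matn1 was highest with 0.56 and Col11a1 lowest with -0.82. The summed intensity of the 13 was 1322405 before loading and 1308460.4 at 24 h, and without Col2a1 it was 822862 and 833584.5.

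**Figure D5:**
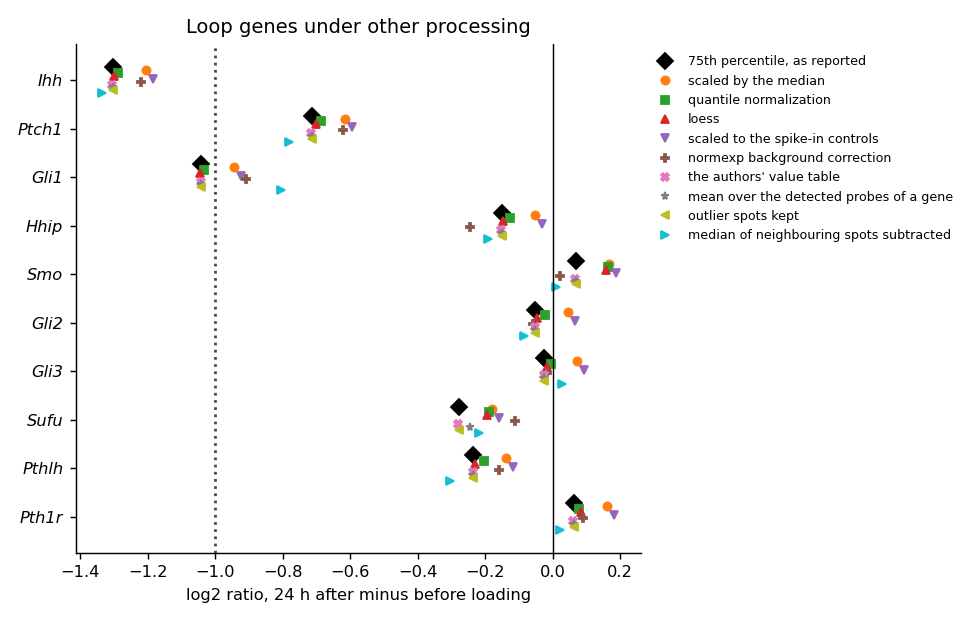
Log2 ratio (24 h after minus before loading) of the 10 loop genes as reported (black diamond) and under 9 other ways of scaling, correcting or averaging the same 2 arrays; the dotted line marks 2-fold lower. Ihh stays below the line throughout (-1.34 to -1.18), Gli1 lies on both sides of it (-1.04 to -0.80), and Ptch1 stays between the line and 0 (-0.78 to -0.60).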

How the data were processed

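RNA of mouse primary chondrocytes was hybridised to 2 one-colour arrays, 1 per time point. The authors deposited the processed intensity of each spot from Agilent Feature Extraction 10.10.1.1, background-subtracted but not normalized between the arrays, and a value table with the same intensities rounded. Spots that the software marked as outliers on either array (141 before loading and 138 at 24 h) were left out, spots of one probe were averaged, and log2 intensities were set relative to the 75th percentile of 55678 probes. For gene names, unversioned accessions were looked up in a RefSeq table (GRCm38), and 27235 probes matched. The brightest probe represents a gene. Detected genes are those with this probe well above background before and after loading. Replicate spots (264 detected probes, 8 spots or more each) differed in log2 ratio by a median SD of 0.09.

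The members, and the 18 other gene lists written by hand, were chosen with earlier results of these data known, and these lists are no independent support. Named are all members, the 3 highest and 3 lowest detected genes of each pathway list, those past 2-fold and defining markers. Boc, Cdon, Gnas, Tgfbr1, Tgfbr2, Sik1, Fosb, Fosl2, Fabp4, Pparg, Lyz2, Vwf, Tnnt3, Matn1, Col11a1 and genes named as not detected were added after their values were seen. Promoter windows came from RefSeq (GRCm38.p6) by symbol; Gli1 was not matched. The script that counts genes past 2-fold was checked on simulated data. A total of 11 alternatives were tried. Normexp and loess came from limma (version 3.58.1, R 4.3.3). All other steps ran in Python 3.11.15 (pandas 2.3.3, numpy 2.4.6 and scipy 1.17.1).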

Additional observations from a re-analysis of the deposited data

How the results depend on the processing

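Of 90 values of the 10 members under 9 alternatives, 89 moved by less than their within-array error and 1 moved by more, that of Gli1, at -0.80 after the median of neighbouring spots was subtracted. The number of members more than 2-fold lower was 2, and it was 1 when arrays were scaled by their medians or to the spike-in controls, with normexp correction, and with the median of neighbouring spots subtracted; Gli1 was the gene that came inside 2-fold, and the cause was not tested. Log2 ratios of Ihh, Ptch1, Gli1, Hhip, Sufu and Pthlh were below 0 in all 9, and those of Pth1r and Smo above 0. The count of members with a log2 ratio below 0 lay between 6 and 8. Medians of the 9 lists on the pathway and the growth plate zones moved by less than 0.20, the median within-array error, in all 11 alternatives. Normexp moved those of the G2 and M phase genes to -2.01 and of the adipocyte genes to 0.76. The medians of hedgehog reception, PTHrP receptor signalling and the regulators of Ihh and of Pthlh lay on both sides of 0. Over all detected genes, 260 were more than 2-fold lower and 95 higher, against 117 and 38 with normexp correction, 507 and 192 where 1 array sufficed for detection, 983 and 492 with no filter on dim probes, 205 and 130 when scaled by medians, and 186 and 141 when scaled to the spike-in controls, which raised the median of all genes by 0.12. Normexp was run on the median spot signal with an added offset of 50, which shrinks the ratios of dim probes. No paired analysis was possible because each condition holds a single array, and for the same reason no array could be left out. Signal over background limits Sufu and the dimmer Hhip probe: signals well above background began at 17.3 and 17.8 on the arrays before loading and at 24 h.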

Other observations

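Genes of the resting zone, the part of the growth plate where PTHrP is made, went in both directions. Of 9 listed genes other than Pthlh, 8 were detected, 4 were higher and 4 lower, and the median log2 ratio was 0.15. Apoe, a lipid carrier, rose from an intensity of 929 to 2189.7, and its log2 ratio of 1.24 stayed past 2-fold with 5 of 5 other scalings. Clu, a secreted chaperone, had 0.85 and the Wnt antagonist gene Sfrp5 had 0.49. Fst, which encodes the activin antagonist follistatin, had intensities of 4180.3 before loading and 2074 at 24 h, a log2 ratio of -1.01 that came inside 2-fold with 5 of 5 other scalings. Wif1, another Wnt antagonist gene, had -0.65, and Mgp, an inhibitor of mineralization, had -0.15, which was above 0 with 1 of 5 other scalings.

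All 3 TGF-β ligand genes, whose products are known to raise Pthlh in perichondrium, had log2 ratios above 0 while that of Pthlh was -0.24. Tgfb2 had intensities of 4120.5 before loading and 6543 at 24 h and log2 ratios of 0.67 and 0.68 on its 2 probes, and Tgfb3 and Tgfb1 had 0.53 and 0.44. Their receptor genes Tgfbr1 and Tgfbr2 had -0.02 and 0.03 on the brighter probes, and 0.61 and -0.15 on the dimmer ones. Smad3, a transducer of TGF-β, had -0.44, Smad2 had -0.18 and Ets1 had -0.05, which was above 0 with 2 of 5 other scalings. Of the 11 genes of this list, all 11 were detected and 0 were past 2-fold in either direction.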
